A study of Mus musculus with 16 samples.

Results

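The visceral and extra-embryonic endoderm was taken as the cells to which the authors' mapping onto an atlas of mouse gastrulation gave the label Visceral endoderm, ExE endoderm or Parietal endoderm, each kept apart. These labels held 262 of the 37841 analysed single cells, of which 141 were Visceral endoderm, 96 ExE (extra-embryonic) endoderm and 25 Parietal endoderm. The cells came from chimeric mouse embryos collected on embryonic days 7.5 (E7.5), 8.5 and 9.5, and made by placing *Stat3* null embryonic stem cells (ESCs) that carry the red fluorophore tdTomato into wild-type (WT) host blastocysts, with donor and host both on the outbred CD1 background. Embryos were pooled at E7.5, large and small ones apart, and at E8.5, so libraries of E7.5 can differ in the size class of their embryos, and the E9.5 cells came from 2 embryos that were processed singly. Sorting gave tdTomato-positive libraries, here called null, and tdTomato-negative libraries of host cells, called WT, with 4 libraries per genotype at E9.5 and 2 at each earlier stage. Letters from A to D name the libraries of a group and carry no further meaning. The host cells never passed through ESC culture, and the null cells are of ESC origin, so genotype and origin cannot be told apart. ESCs placed in a blastocyst are known to enter the epiblast and its derivatives and to enter the extra-embryonic endoderm only rarely, which limits null-sorted cells as a model of this tissue.

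The extra-embryonic endoderm of the mouse descends from the primitive endoderm of the blastocyst. Visceral endoderm wraps the egg cylinder, where its anterior part secretes antagonists of Wnt and Nodal signals and its extra-embryonic part takes up maternal nutrients and secretes plasma proteins. It later becomes the endoderm of the visceral yolk sac, and some of its cells join the embryonic gut. Parietal endoderm migrates along the trophoblast and lays down Reichert's membrane, a thick sheet of laminin and collagen IV. STAT3 is a transcription factor downstream of cytokine receptors of the gp130 family.

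The 16 libraries held 360 to 4327 analysed cells and 20682659 to 138613245 unique molecular identifiers (UMIs) each, with a median per cell between 18205 and 57791.5. All 3 labels together were found in 14 of the libraries, with 213 cells in WT and 49 in null libraries, and no WT-sorted cell with a tdTomato UMI was kept. The libraries E9.5 WT C and E9.5 WT D shared barcodes, since all 22040 barcodes listed for C were among the 24603 listed for D and 375 passed the authors' filter in both. Of the 28 cells of the 3 labels in E9.5 WT D, 22 had a barcode listed in E9.5 WT C, with at most 2836 UMIs there and none past the filter. Any other pair of libraries shared at most 196 listed barcodes. No library is tied to an embryo. With 2 embryos and 4 libraries per genotype at E9.5, some libraries must share an embryo, and p-values from tests that take them as replicates are too small. At every stage p-values measure the spread between libraries, which may be partly technical.

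*Stat3*, the targeted gene, had few UMIs in these cells, and its level did not separate WT from null-sorted libraries. Libraries with at least 5 cells of the 3 labels gave 18.1 and 15 CPM in E7.5 WT A and B, 10.9 CPM in E8.5 WT B and 61.5 and 33.3 CPM in E9.5 WT A and D. The null libraries gave 12 and 20.1 CPM in E8.5 null A and B and 12.6 CPM in E9.5 null C. These values rest on 4 to 37 UMIs per library, and null and WT overlapped. In E8.5 null B 4 of the 5 cells had no tdTomato UMI, and in E9.5 null C 5 of the 7 *Stat3* UMIs came from 2 cells. The difference of -14.8 CPM had p = 0.667 in an exact two-sided permutation test within stages, which with 9 arrangements cannot go below 0.111, and it turned to 5.17 CPM without E9.5 null C. It was -17.7 CPM when null-sorted cells without a tdTomato UMI were left out. Outside the 3 labels, null libraries had 1.16 to 2.51 CPM of *Stat3* and WT libraries 6.12 to 8.94 CPM, without overlap. Whether the counted 3′ end lies in the deleted part is not given in the sources used here.

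At E7.5 the visceral endoderm was a sizeable WT population and nearly absent from null libraries, and at E9.5 the 3 labels together made up at most 0.708% of every library but null C, where ExE endoderm made up 1.63%. Visceral endoderm made up 4.29% of E7.5 WT A and 3.98% of E7.5 WT B, against 0.0921% of null A and none of the 360 cells of null B. ExE endoderm made up 1.38% and 1.79% of the same WT libraries. No null cell at E7.5 had that label, which allows a share of up to 0.118%. The WT share of ExE endoderm was thus at least 14.1-fold higher (11.7-fold without E7.5 WT B). In edgeR's quasi-likelihood test over 27 cell types, of which 11.1% were called, both labels passed, with a log2 fold change of -6.06 for Visceral endoderm (adjusted p = 2.21e-05) and an adjusted p of 8.58e-08 for ExE endoderm. The call for Visceral endoderm was lost without E7.5 WT B (adjusted p = 0.118), and that for ExE endoderm with all libraries in 1 fit (adjusted p = 0.339).

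At E8.5 the WT and null libraries overlapped in both labels. The share of Visceral endoderm was 0.0786% and 0.314% in WT A and B and 0.209% and 0.0873% in null A and B. ExE endoderm made up 0.0786% and 0.183% of the WT libraries and 0.0783% and 0.349% of the null libraries. All 7 of these null-sorted ExE endoderm cells had 0 tdTomato UMIs, against 89.9% and 72.5% of cells outside the 3 labels with such a UMI in null A and B. At E8.5 edgeR called 0% of 68 cell types between genotypes, and Visceral endoderm had a log2 fold change of -0.30 (adjusted p = 1.000). The change in the genotype effect between E7.5 and E8.5 was 4.94 on the log2 scale for Visceral endoderm (adjusted p = 0.352) and was not called for any of 84 types, so the difference between the stages did not pass a test of its own.

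At E9.5 no label passed the threshold between genotypes, and a few libraries carried each of them. Visceral endoderm was found in 3, 2, 0 and 7 cells of WT A to D and in 1, 0, 0 and 1 cells of null A to D, too few for the test. ExE endoderm was found in 3 cells of WT A, 2 of WT B, 0 of WT C and 4 of WT D, and in 1, 2, 26 and 0 cells of null A to D. The 26 cells of null C were 1.63% of that library (exact 95% interval 1.07 to 2.38%), while the other null libraries lay between 0 and 0.0830%. The log2 fold change of 2.39 did not pass (adjusted p = 0.963), and 24 of these 26 cells mapped to a later atlas stage than any other cell of the label. Parietal endoderm was seen in 7 cells of E9.5 WT A and 17 of E9.5 WT D, with 1 more cell in E8.5 WT B, and in no null library at any stage. The 9876 null cells at E9.5 allow a share of up to 0.0304%, so that the WT share was at least 6.82-fold higher over the stage (3.02-fold without WT D, 6.58-fold without WT A). With an unadjusted p of 0.00183 the label missed the threshold (adjusted p = 0.0649 in edgeR, 1.41% of 71 types called). WT B and WT C held no parietal cell either, so the groups overlapped at 0. Intervals and limits cover counting error only.

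**Figure D1:**
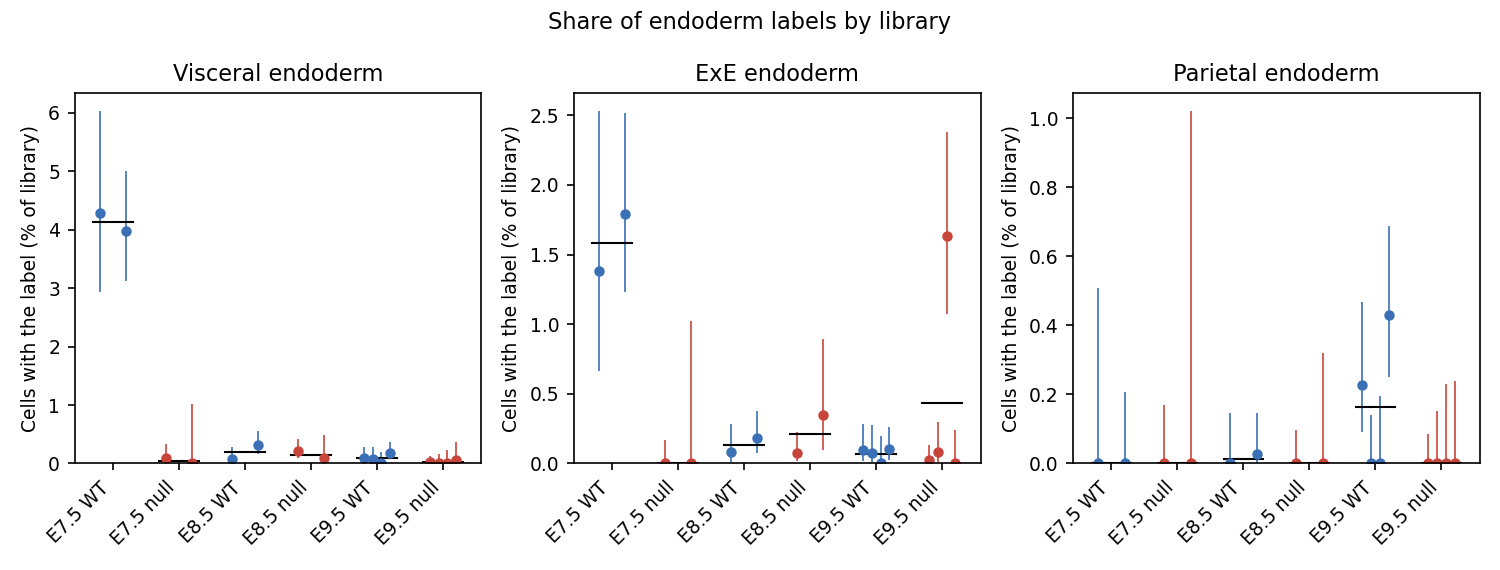
Share of cells (% of the library's analysed cells, linear axis from 0) with each label, by stage and genotype, where each point is a library (blue WT, red null) with its exact 95% binomial interval and black lines are group means. The 2 E7.5 WT libraries stand at 3.98 and 4.29% for Visceral endoderm, and E9.5 null C stands alone at 1.63% for ExE endoderm.

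Among WT libraries alone, the share of Visceral endoderm fell from 4.13% ± 0.216 (SD, n = 2) at E7.5 to 0.196% ± 0.166 (n = 2) at E8.5, and was 0.0875% ± 0.0728 (n = 4) at E9.5. The first step had a log2 fold change of -3.66 (adjusted p = 0.00203), in a comparison in which 80.7% of 83 types were called. ExE endoderm fell from 1.59% ± 0.291 to 0.131% ± 0.0738 (log2 fold change -2.92, adjusted p = 0.00340, and 0.145 without E7.5 WT B) and stood at 0.0686% ± 0.0471 at E9.5. From E8.5 to E9.5, where 10.8% of types were called, neither label passed (adjusted p = 0.470 and 0.573). Parietal endoderm stood at 0 of 2506 cells at E7.5, which allows up to 0.12%, 0.0131% ± 0.0185 at E8.5 and 0.164% ± 0.207 at E9.5, with no call at either step (adjusted p = 0.587 and 0.216). Stage and embryo pool cannot be told apart here.

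The atlas stage that came with the label stayed early while the embryos aged. Of the 102 WT Visceral endoderm cells at E7.5, 90 mapped to atlas stage E7.5 and 12 to E7.75. At E8.5, 2 of 14 WT cells mapped to E7.5 and 12 to E7.75, and at E9.5 the counts were 8 and 3 of 12, with 1 cell at E9.5. All 25 parietal cells mapped to E7.5, as did 8 of 9 WT ExE endoderm cells at E9.5. The null ExE endoderm cells at E9.5 were the exception, with 5 at E7.5, 1 at E8.75 and 23 at E9.25.

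The labels Visceral and ExE endoderm were checked against secreted proteins of this tissue. Levels are UMI counts of the summed cells of a library, scaled to a total of 1000000 (CPM), and compare a gene between libraries. *Ttr*, the carrier of thyroid hormone and of retinol-binding protein, was at 3885 and 4273 CPM in the Visceral endoderm of E7.5 WT A and B and at 6352 and 4751 CPM in their ExE endoderm, against 5.41 and 14.0 CPM in cells outside the 3 labels. *Apoa1*, the main protein of high-density lipoprotein, stood at 1604 and 2642 CPM in Visceral and at 5110 and 4955 CPM in ExE endoderm of the same libraries. *Afp*, the fetal plasma carrier alpha-fetoprotein, was lower at this stage, with 355 and 531 CPM in Visceral and 844 and 562 CPM in ExE endoderm. Cells outside the 3 labels were at 4.68 and 10.4 CPM for *Apoa1* and at 0.614 and 1.14 CPM for *Afp*. The labels were set from the same transcriptomes, so these levels are a description.

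The Parietal endoderm label was at or near the background for these markers and had a basement membrane programme instead. *Ttr* stood at 53.3 CPM in the parietal cell of E8.5 WT B and at 28.6 and 7.10 CPM in E9.5 WT A and D, *Apoa1* at 0, 8.16 and 2.37 CPM and *Afp* at 0, 0 and 7.10 CPM. The same 3 libraries gave 17371, 7369 and 21028 CPM of *Col4a1* and 5915, 3339 and 10008 CPM of *Col4a2*, the chains of collagen IV, and 3623, 2829 and 5795 CPM of the laminin chain *Lama1*. *Sparc*, a secreted collagen-binding glycoprotein, reached 21101, 7079 and 30331 CPM. The 16 genes of the parietal list summed to between 29727 and 85215 CPM at E9.5, against 1105 CPM in other cells of those libraries. E9.5 WT A was the lower of the pair for each of these genes.

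Within the parietal cells the basement membrane genes and the regulators of the lineage were seen in all 3 libraries. The remaining laminin chains of laminin-111 stood at 2984, 1653 and 3529 CPM for *Lamb1* and at 3304, 1739 and 2999 CPM for *Lamc1*, and the linker protein gene *Nid1* at 480, 972 and 2765 CPM. *Pth1r*, the receptor for parathyroid hormone-related peptide that is known to act in the formation of parietal endoderm, was at 639, 1363 and 1575 CPM. The endoderm transcription factors *Gata6*, *Gata4*, *Sox17* and *Sox7* were at 853, 373, 266 and 53.3 CPM in E8.5 WT B, at 555, 212, 253 and 73.5 CPM in E9.5 WT A and at 790, 184, 180 and 94.6 CPM in E9.5 WT D. The genes with the highest ratio to other cells of the same libraries at E9.5 began with *Pga5* (1293-fold) and *Slc6a2* (912-fold), a pepsinogen and the noradrenaline transporter. With *S100g*, a calcium-binding protein, the libraries were far apart (0, 2613 and 35.5 CPM). Because these genes chose the label, they describe it and were not tested.

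**Figure D2:**
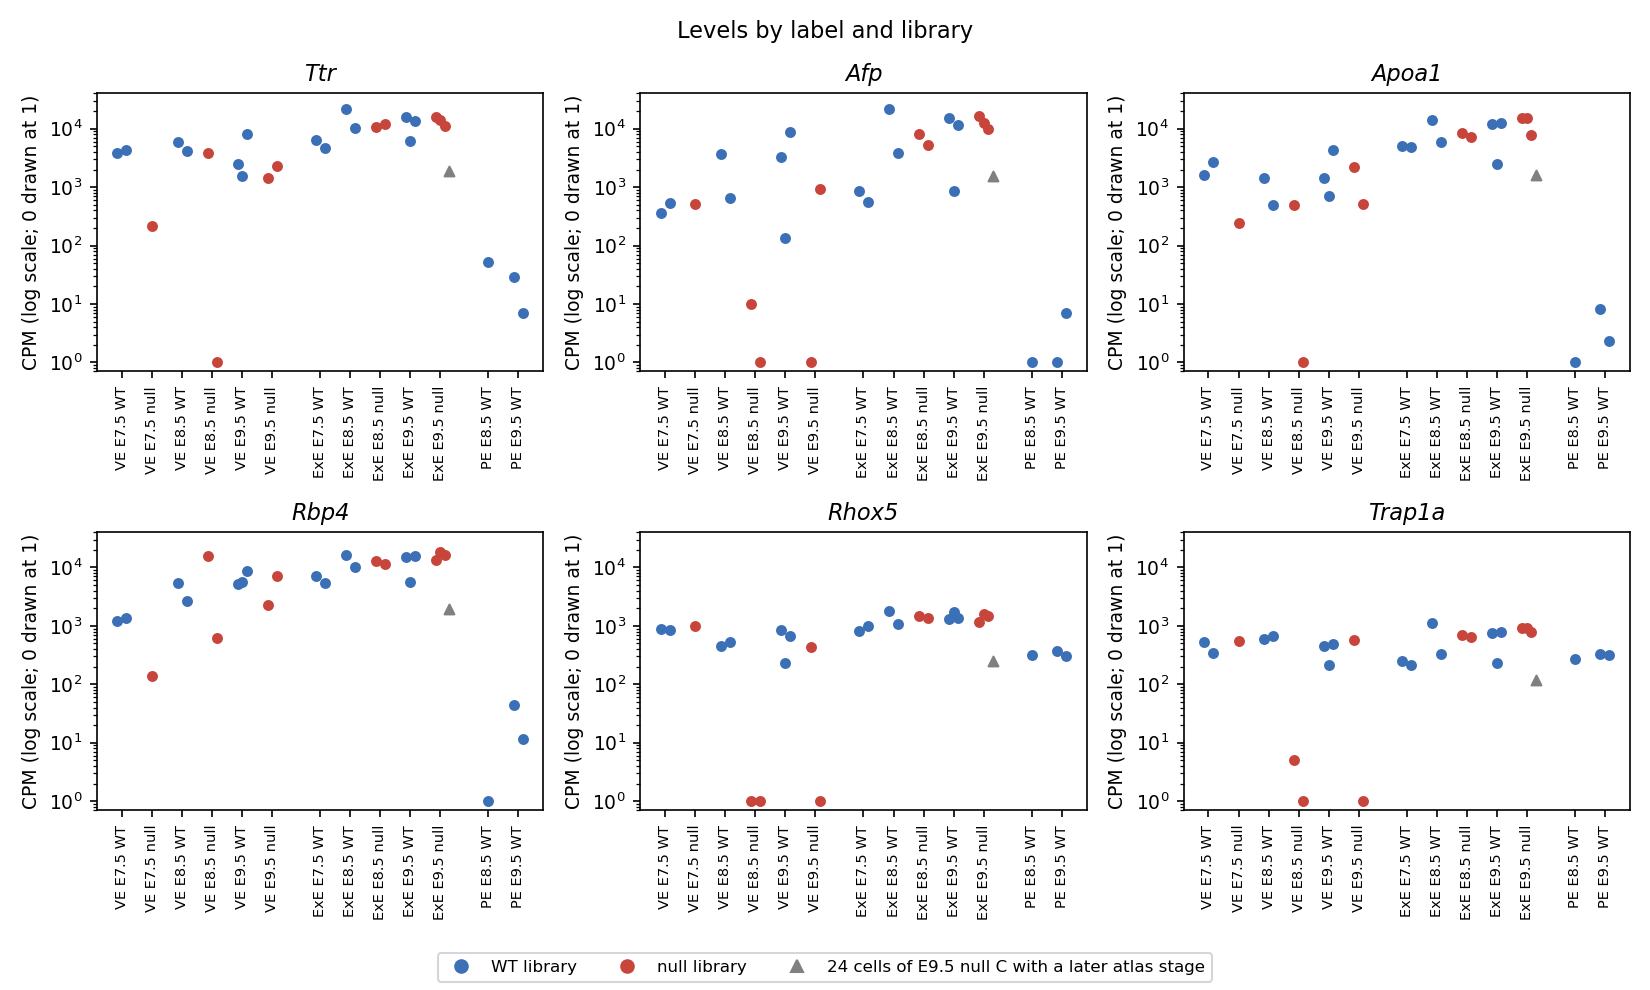
Level (CPM of the summed cells of a library, log axis, 0 drawn at 1) of 6 genes in Visceral (VE), ExE and Parietal (PE) endoderm by stage and genotype. Each circle is a library (blue WT, red null), and the grey triangle is the 24 later-stage cells of E9.5 null C, which stand below the other ExE endoderm points for *Ttr*, at 1901 CPM.

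At E7.5 *Apoa2*, *Cubn* and *Slc2a2* stood higher in ExE endoderm than in Visceral endoderm of both WT libraries, and *Cer1* stood higher in Visceral endoderm. *Apoa2*, a further high-density lipoprotein component, stood at 47.8 and 14.9 CPM in the Visceral endoderm of WT A and B and at 789 and 717 CPM in their ExE endoderm. *Cubn*, the endocytic receptor cubilin, was at 133 and 216 CPM in Visceral and 1133 and 621 CPM in ExE endoderm, and *Slc2a2*, a glucose transporter, at 1.29 and 19.1 against 411 and 385 CPM. Of the partners of cubilin in uptake, *Amn* was at 405 and 595 CPM in Visceral and 840 and 940 CPM in ExE endoderm, and the adaptor *Dab2* at 614 and 862 against 2156 and 1548 CPM. In the other direction, *Cer1*, a secreted antagonist of Nodal, BMP and Wnt, was at 64.6 and 211 CPM in Visceral endoderm and at 0 and 1.28 CPM in ExE endoderm. These contrasts lie between labels set from the same transcriptomes and were not tested.

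The E7.5 Visceral endoderm itself held cells with and without signs of the anterior visceral endoderm. In E7.5 WT A, 12 of 31 cells had a *Cer1* UMI, and in E7.5 WT B 42 of 71 did. In WT B the cells with *Cer1* had 413 CPM of the Wnt antagonist *Dkk1* against 42.6 CPM in those without, 445 against 93.7 CPM of *Lhx1* and 200 against 8.52 CPM of *Otx2*, both head-forming transcription factors. *Sfrp1*, a secreted Wnt-binding protein, differed likewise, with 832 against 66.8 CPM. In WT A the contrast was seen for *Otx2* (270 against 34.6 CPM) and *Sfrp1* (259 against 38.6 CPM), and was small for *Dkk1* (114 against 102 CPM) and *Lhx1* (81.6 against 67.1 CPM). The further anterior genes *Hhex*, *Sfrp5* and *Gsc* were at 31.9 against 14.2, 3.55 against 4.07 and 0 against 0 CPM in WT A. In WT B they were at 115 against 17.0, 83.0 against 18.5 and 51.3 against 8.52 CPM. *Trh*, the thyrotropin-releasing hormone gene, was higher with *Cer1* in both libraries (5423 against 1659 CPM in A, 1265 against 497 CPM in B).

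General visceral endoderm genes did not follow *Cer1* in that way. The protease inhibitor gene *Spink1* stood at 8431 and 8487 CPM in cells of WT A with and without *Cer1* and at 9809 and 10429 CPM in those of WT B. *Ttr* stood at 3809 and 3929 CPM and at 3875 and 4825 CPM. *Afp* was lower in the cells with *Cer1*, at 99.3 against 502 CPM in WT A and 311 against 837 CPM in WT B. The split uses the same cells as the levels, and depth enters whether a *Cer1* UMI is seen, so these values are a description with no test.

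**Figure D3:**
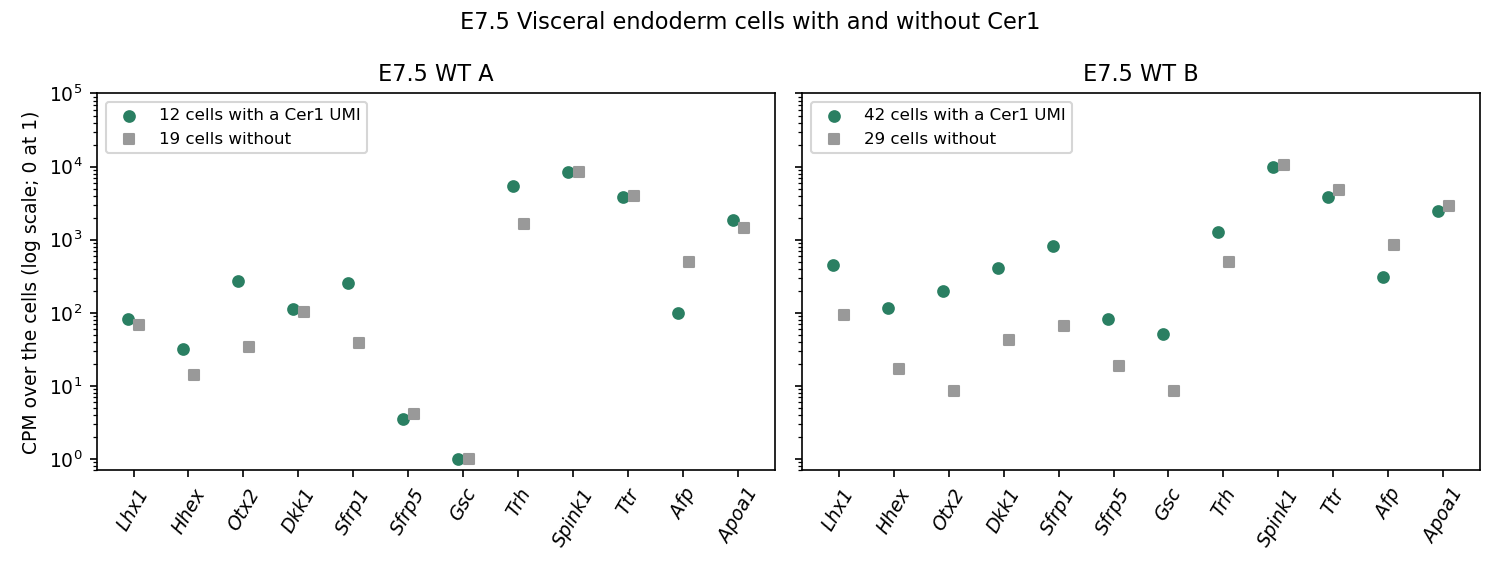
Levels (CPM over the cells, log axis, 0 drawn at 1) of 12 genes in E7.5 Visceral endoderm cells with (green circles) and without (grey squares) a *Cer1* UMI, one panel per WT library. The pooled levels of *Otx2* and *Sfrp1* lie apart in both panels, and those of *Spink1* and *Ttr* lie close together.

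Between E7.5 and E8.5 the anterior regulator *Otx2*, the hormone gene *Trh*, *Spink1* and the metallothioneins fell in WT Visceral endoderm, while *Nepn*, *Serpina1a*, *Dio3* and *Dlk1* rose. Over 5775 genes tested with edgeR on summed counts (2 against 2 libraries), 26 were called at an adjusted p under 0.05 and an absolute log2 fold change over 1, which is 0.450%, with 18 higher (0.312%) and 8 lower (0.139%) at E8.5. *Otx2* stood at 120 and 120 CPM at E7.5 and at 0 in both E8.5 libraries (adjusted p = 0.0140), at least 9.94-fold lower when 3 counts are allowed over the group. Of the 248582 UMIs behind this bound, E8.5 WT B held 193874. *Trh* stood at 3031 and 943 CPM and then at 54.8 and 41.3 CPM (log2 fold change -5.53, SE 0.79, adjusted p = 0.0497). *Spink1* went from 8467 and 10069 CPM to 2120 and 3115 CPM (-1.87, SE 0.26, adjusted p = 0.0140), with no overlap between the stages. The same held for 2618 of the 5775 genes tested, in either direction.

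The list of anterior and embryonic visceral endoderm genes holds 14 genes, of which 11 were tested and 2, *Otx2* and *Spink1*, were called. All 11 had a fold change below 0, with a median of -3.68 against 0.00 over all genes tested. The cells of the Visceral endoderm label at E8.5 mapped mostly to a later atlas stage, as given above, and its part in these changes was not tested. Further genes called lower were the lysosomal protease *Ctsc* (419 and 566 CPM, then 54.8 and 61.9 CPM, log2 fold change -3.10, adjusted p = 0.00738) and the carbonic anhydrase *Car2* (262 and 403 CPM, then 54.8 and 15.5 CPM, -3.82, adjusted p = 0.0140). The metallothioneins *Mt1* and *Mt2*, which bind zinc and copper, were called lower too (-2.23 and -1.66, adjusted p = 0.0230 and 0.0497). Of the 9 genes of the iron and metal list, all tested, these were the 2 called and 8 lay below 0.

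Among the genes called higher at E8.5, *Nepn*, a secreted proteoglycan known from foregut and midgut endoderm, went from 5.17 and 2.98 CPM to 219 and 763 CPM (log2 fold change 7.11, SE 0.57, adjusted p = 0.000433). *Serpina1a*, an alpha-1 antitrypsin gene, went from 1.29 and 0.595 CPM to 146 and 41.3 CPM (6.09, SE 0.98, adjusted p = 0.0230), and its near-identical copy *Serpina1b* moved likewise, so reads may be split between them. Neither of these copies was called with any library left out. *Dio3*, an imprinted enzyme that inactivates thyroid hormone, rose from 2.58 and 3.57 CPM to 256 and 67.1 CPM (5.10, SE 0.75, adjusted p = 0.0150). *Dlk1*, an imprinted Notch-related ligand from the same gene cluster, rose from 72.4 and 37.5 CPM to 585 and 273 CPM (2.79, SE 0.42, adjusted p = 0.0150). *Clu*, a secreted chaperone, was the only gene called among 10 tested of the endocytosis and lysosome list (6.46 and 4.76 CPM, then 219 and 82.5 CPM, 4.40, SE 0.61, adjusted p = 0.0140), while 8 of the 10 lay below 0 with a median of -1.14. Red-cell RNA stood higher as well, since the embryonic globin *Hba-x* was at 2.58 and 0 CPM at E7.5 and at 494 and 552 CPM at E8.5, and its part was not tested. The median mitochondrial share of UMIs was 2.77% in the E7.5 and 0.115% in the E8.5 cells, and the median share of atlas neighbours with the label was 1.00 and 0.740. The part of these in the calls was not tested. *Trh* was not called in limma-voom (adjusted p = 0.0994) or without either E8.5 library, *Nepn*, *Dlk1* and *Mt1* were not called with 3 stages in 1 fit (adjusted p = 0.113, 0.121 and 0.214), and *Mt2* was lost in that fit, in DESeq2 and with RLE factors (adjusted p up to 0.432). The calls rest on 31 and 71 cells at E7.5 and on 2 and 12 cells at E8.5, and 15 of the 26 were called again without E7.5 WT B. The number of calls was 52 without E7.5 WT A, 211 without E8.5 WT A and 242 without E8.5 WT B.

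From E8.5 to E9.5 *Fabp3*, *Flt1* and the basement membrane genes *Lama1* and *Col4a2* rose in WT Visceral endoderm, and 2 histone genes fell. Of 1549 genes tested (2 against 3 libraries), 8 were called, or 0.516%, with 4 in each direction. *Fabp3*, a fatty acid carrier that is also among the leading genes of the Parietal endoderm label, stood at 18.3 and 5.16 CPM at E8.5 and at 261, 409 and 311 CPM at E9.5 (log2 fold change 5.15, SE 0.62, adjusted p = 0.000746). *Flt1*, a receptor of vascular endothelial growth factor, went from 18.3 and 25.8 CPM to 422, 273 and 311 CPM (3.77, SE 0.50, adjusted p = 0.00116). *Lama1* (54.8 and 46.4 CPM, then 199, 348 and 239 CPM, adjusted p = 0.0286) and *Col4a2* (128 and 206 CPM, then 633, 758 and 496 CPM, adjusted p = 0.0235) rose by 2.40 and 1.81 on the log2 scale. They were the genes called of 9 tested from the parietal list, whose median was 1.57 against 0.00 over all genes, with 7 of 9 above 0.

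The genes called lower at E9.5 were 2 histone genes, *Hist1h2ap* (1005 and 516 CPM, then 49.6, 45.5 and 114 CPM, adjusted p = 0.00256) and *Hist1h1e*, the peptide hormone *Apela* (183 and 428 CPM, then 37.2, 90.9 and 89.7 CPM, log2 fold change -2.11, adjusted p = 0.0432) and *Emb*, a chaperone of lactate transporters (2778 and 2594 CPM, then 1092, 970 and 1100 CPM, log2 fold change -1.34). The median mitochondrial share of UMIs was 0.115% in the E8.5 and 2.58% in the E9.5 cells, and its part in the calls was not tested. *Fabp3* and *Flt1* were called with each of the 5 libraries left out in turn, also where that left 1 library at E8.5, but not in limma-voom (adjusted p = 0.152 and 0.201), which also did not call *Col4a2*, *Hist1h2ap*, *Lama1* and *Apela* (adjusted p = 0.0530, 0.0716, 0.0753 and 0.159). DESeq2 called neither *Lama1* nor *Apela* (adjusted p = 0.0956 and 0.244). Without E9.5 WT D, whose barcodes overlap those of WT C, 3 of the 8 calls were left, and without E9.5 WT B only these 2. Without E8.5 WT A or B, 24 and 32 genes were called.

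In WT ExE endoderm *Ttr*, *Afp*, *Apoa1* and *Rbp4* stood higher in both E8.5 libraries than in both E7.5 libraries, though without a call, and no gene of the lipoprotein list was called. Of the 3680 genes tested, 1546 likewise had no overlap between the stages, in either direction, so the separation says little about these genes. *Ttr* went from 6352 and 4751 CPM at E7.5 to 21403 and 10189 CPM at E8.5, and stood at 16121, 6097 and 13641 CPM at E9.5. *Afp* went from 844 and 562 CPM to 21426 and 3842 CPM, with 15174, 875 and 11349 CPM at E9.5, and *Apoa1* from 5110 and 4955 to 14178 and 6024 CPM, with 12201, 2444 and 12649 CPM at E9.5. *Rbp4*, the retinol carrier that binds transthyretin, stood at 7068 and 5383 CPM, then 16436 and 10286 CPM, then 15133, 5531 and 16000 CPM. The first step separated the stages for each of these, but the spread within a stage was wide, and E9.5 WT B, with 2 cells, lay near or below the E7.5 values for *Ttr*, *Afp* and *Apoa1*. None of *Ttr*, *Afp* and *Apoa1* was called, with a median log2 fold change of 1.54 for the 3. *Alb*, the albumin gene of the later liver, was at 0 in every library of the 3 labels.

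Of 3680 genes tested in ExE endoderm between E7.5 and E8.5, 20 were called (0.543%), with 18 higher (0.489%) and 2 lower (0.0543%). The calls rest on 10 and 32 cells of WT A and B at E7.5 and on 2 and 7 cells at E8.5. *Fbp2*, an enzyme of gluconeogenesis, went from 9.14 and 7.69 CPM to 226 and 129 CPM (log2 fold change 4.19, SE 0.56, adjusted p = 0.000379) and was, alone among the 20, called with each of the 4 libraries left out in turn, which leaves a stage with 1 library that is assumed to vary like the other stage. *Krt7*, a keratin of simple epithelia, went from 3.05 and 0 CPM to 113 and 90.4 CPM (6.23, SE 1.15, adjusted p = 0.00746), and the fatty acid carrier *Fabp2* from 12.2 and 14.1 to 135 and 90.4 CPM. *Phlda2*, an imprinted gene that restrains placental growth, stood at 280 and 386 CPM and then at 1309 and 1014 CPM (1.77, SE 0.29, adjusted p = 0.00347).

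By list, a clotting gene and no endocytosis gene was called in ExE endoderm, where 0.543% of all genes were called. The lists were not compared by a test. *Fgg*, the gamma chain of fibrinogen, was called of 6 clotting genes tested (54.8 and 39.8 CPM, then 384 and 187 CPM, log2 fold change 2.44, SE 0.41, adjusted p = 0.00347), and the list's median was 1.63. None of 10 endocytosis genes tested was called, and their median was -0.28, with -0.02 over all genes. *Fjx1*, a homologue of a planar polarity gene of the fly, was at 113 and 123 CPM at E7.5 and at 0 in both E8.5 libraries (adjusted p = 0.00347), at least 7.97-fold lower, but it was not called in DESeq2 or limma-voom (adjusted p = 0.0682 and 0.128). Of the 199164 UMIs behind this bound, E8.5 WT B held 154871. *Krt7* was not called in limma-voom (adjusted p = 0.0567), and *Fgg* not with 3 stages in 1 fit (adjusted p = 0.0724). The median mitochondrial share of UMIs was 2.56% and 2.55% in the ExE endoderm of the E7.5 WT libraries and 1.40% and 1.69% in that of the E8.5 WT libraries, without overlap, and its part in the calls was not tested. DESeq2 shared 7 of the 20 calls. The number of calls was 11 without E7.5 WT B, 36 without E8.5 WT A and 108 without E8.5 WT B. Between E8.5 and E9.5 edgeR called 0% of 1794 genes (53 at an unadjusted p under 0.05, and 0 in DESeq2 and limma-voom).

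*Rhox5* and *Trap1a* are X-linked genes that are known to be expressed in extra-embryonic lineages, and both were counted in all 3 labels. *Rhox5*, a homeobox gene, had a UMI in 102 of 102 WT Visceral endoderm cells at E7.5 and in 95 of the 96 ExE endoderm cells of all libraries. Its level in WT Visceral endoderm was 887 and 835 CPM at E7.5, 457 and 531 CPM at E8.5 and 856, 227 and 664 CPM at E9.5, and in WT ExE endoderm 816 and 993, then 1806 and 1078, then 1296, 1724 and 1362 CPM. Parietal cells had 320, 371 and 307 CPM. WT cells outside the 3 labels were at 193 and 321 CPM at E7.5, which is near the parietal level, and between 1.20 and 9.77 CPM at E9.5. *Trap1a* had a UMI in 99 of the 102 WT Visceral endoderm cells at E7.5 and stood at 521 and 348 CPM there, at 585 and 671 CPM at E8.5 and at 447, 212 and 496 CPM at E9.5.

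The 9 null Visceral endoderm cells at E8.5, all of them tdTomato-positive, were nearly without *Rhox5*, *Trap1a* and *Afp*. Null A gave 8 of these cells and null B 1, against 2 cells of WT A and 12 of WT B. The cell of null B held 11139 UMIs, so that 2 UMIs there make 180 CPM. Here and below, its levels up to 180 CPM, and its zeros for genes that are low in WT, rest on hardly any UMIs. *Rhox5* was at 457 and 531 CPM in WT A and B and at 0 in both null libraries (adjusted p = 4.43e-07 in edgeR), at least 36.4-fold lower. Of the 212209 UMIs behind this bound, null A held 201070. *Trap1a* was at 585 and 671 CPM in WT and at 4.97 and 0 CPM in null A and B (log2 fold change -6.78, SE 0.88, adjusted p = 1.54e-07), and *Afp* at 3637 and 650 CPM against 9.95 and 0 CPM (-7.71, SE 1.05, adjusted p = 3.74e-05). Cell by cell, 11 of the 14 WT cells had a *Rhox5* UMI, 12 a *Trap1a* UMI and 8 an *Afp* UMI, whereas in the null cells these numbers were 0, 1 and 1 of 9. Over 2317 genes tested, 25 were called, or 1.08%, with 14 lower (0.604%) and 11 higher (0.475%) in null cells. The fit took the 1 cell of null B as a library on a par with null A. The adjusted p-values of this comparison, here and below, thus rest partly on a cell taken as a replicate. The name of these cells rests on the atlas mapping alone, while several markers of the tissue were nearly absent. A difference of cell type within the label cannot be told apart from genotype here.

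The proximal promoters of the genes that separated these cells, with *Apoa1* beside *Afp* as a marker that was not called, are shown to give the sequence context of genes that were low together. RefSeq's sequence of GRCm38.p6 was used, from 250 bases before to 50 after the annotated start, all on the + strand. *Afp* lies at chr5:90490464-90490763, *Apoa1* at chr9:46228380-46228679, *Rhox5* at chrX:37754358-37754657 and *Trap1a* at chrX:139333433-139333732. Capitals mark matches, on either strand, to the HNF1 core GTTAAT, the GATA motif AGATAA or the forkhead core TGTTTA, which are found in 7.10%, 11.2% and 13.4% of 32851 promoters of the same length.
Afp: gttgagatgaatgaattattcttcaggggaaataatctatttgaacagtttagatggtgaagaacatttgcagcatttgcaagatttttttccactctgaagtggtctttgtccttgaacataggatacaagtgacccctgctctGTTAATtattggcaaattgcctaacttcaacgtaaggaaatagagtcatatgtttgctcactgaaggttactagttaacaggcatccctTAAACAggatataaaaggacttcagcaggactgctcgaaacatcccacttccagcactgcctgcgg
Apoa1: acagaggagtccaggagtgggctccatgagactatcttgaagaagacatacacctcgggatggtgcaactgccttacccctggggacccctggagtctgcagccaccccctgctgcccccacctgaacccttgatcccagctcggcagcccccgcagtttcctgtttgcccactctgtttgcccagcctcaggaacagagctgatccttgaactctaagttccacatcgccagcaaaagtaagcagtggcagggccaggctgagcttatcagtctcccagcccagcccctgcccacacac
Rhox5: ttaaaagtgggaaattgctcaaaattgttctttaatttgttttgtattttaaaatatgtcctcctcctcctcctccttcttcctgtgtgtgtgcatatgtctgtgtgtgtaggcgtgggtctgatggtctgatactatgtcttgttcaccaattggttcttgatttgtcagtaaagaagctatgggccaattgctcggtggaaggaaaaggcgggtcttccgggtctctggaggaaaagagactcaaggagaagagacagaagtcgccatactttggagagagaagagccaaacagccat
Trap1a: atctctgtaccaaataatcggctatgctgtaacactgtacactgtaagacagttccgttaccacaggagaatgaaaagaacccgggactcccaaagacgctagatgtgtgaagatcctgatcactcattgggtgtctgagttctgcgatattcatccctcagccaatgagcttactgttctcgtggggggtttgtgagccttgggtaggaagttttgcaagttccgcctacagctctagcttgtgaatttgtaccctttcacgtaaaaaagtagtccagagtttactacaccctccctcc
The *Afp* window held 1 match to the HNF1 letters and 1 to the forkhead letters, and the other windows held none of these letters, which says nothing about the factors themselves. Only these exact letters were searched for, so other forms of the same sites are not counted.

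Among the other genes lower in the null Visceral endoderm at E8.5 were plasma protein genes. *Spp2*, a secreted phosphoprotein, was at 731 and 155 CPM in WT and at 0 in both null libraries (adjusted p = 0.00177), at least 19.9-fold lower, and *Fgb*, the beta chain of fibrinogen, at 201 and 98 CPM against 9.95 and 0 CPM (log2 fold change -3.70, adjusted p = 0.0276). *Spp2* and *Fgb* were the members tested of the 12 genes of the clotting list. The bound for *Spp2* rests mostly on null A, as does that for *Rhox5*. *Apob*, the main protein of the lipoproteins that carry fat out of the cell, was at 823 and 676 CPM against 189 and 0 CPM (-2.25, adjusted p = 0.0124), as the gene called of 6 tested in its list. *Amn*, the membrane anchor of cubilin, was at 183 and 160 CPM against 19.9 and 0 CPM (-3.11, adjusted p = 0.0467), the gene called of 9 in the endocytosis list.

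Some imprinted genes were also lower in null cells. *H19*, a maternally expressed long RNA, was at 2413 and 1357 CPM in WT and at 293 and 0 CPM in null A and B (log2 fold change -3.09, adjusted p = 0.00210). *Grb10*, an inhibitor of insulin receptor signals, was at 548 and 222 CPM against 19.9 and 89.8 CPM (-3.82, adjusted p = 0.00612), *Peg10* at 695 and 382 against 69.6 and 180 CPM (-2.70, adjusted p = 0.00933) and *Dlk1* at 585 and 273 against 79.6 and 0 CPM (-2.55, adjusted p = 0.0344). Other imprinted genes were not lower in null A, such as *Dio3* (256 and 67.1 CPM in WT, 254 CPM in null A and 0 in null B) and *Phlda2* (183 and 433 against 592 and 0 CPM). No list of imprinted genes was tested, and these were named after their values were seen.

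The genes higher in the null cells included some that act in the endoplasmic reticulum. *Manf*, a secreted stress-response factor of that compartment, was at 146 and 377 CPM in WT and at 1114 and 2603 CPM in null A and B (log2 fold change 2.46, adjusted p = 0.00524). *Creld2* (91.4 and 103 against 522 and 628 CPM), *Sdf2l1* (18.3 and 46.4 against 229 and 449 CPM) and *Herpud1* (0 and 10.3 against 254 and 180 CPM), which act in folding or removal of secreted proteins, were called higher as well (2.38, 2.74 and 4.72, adjusted p = 0.0124, 0.0334 and 0.00109). This group was also named after its values were seen, no list of such genes was tested, and DESeq2 called none of them. *Car3*, a carbonic anhydrase, was at 0 in both WT libraries and at 149 and 180 CPM in null (adjusted p = 0.00125), at least 12.5-fold higher, and *Col4a1*, at 128 and 361 against 1204 and 808 CPM (1.92, adjusted p = 0.0259), was the gene called of 8 tested in the parietal list. Of the 248582 WT UMIs behind the bound for *Car3*, WT B held 193874. The 180 CPM of *Car3* and of *Herpud1* in null B are 2 UMIs each, from 1 cell.

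**Figure D4:**
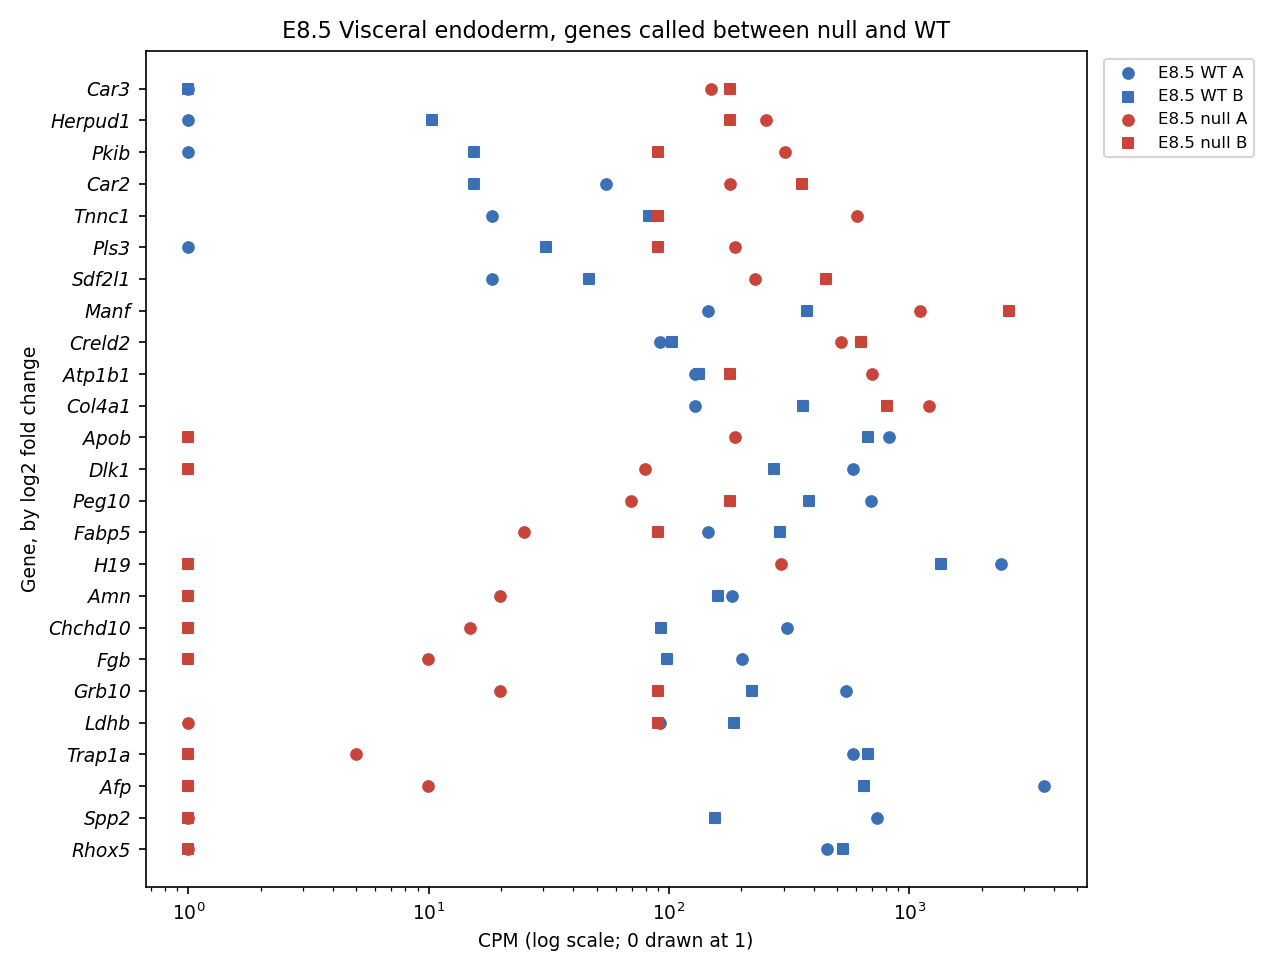
Level (CPM, log axis, 0 drawn at 1) of the 25 genes called between null (red) and WT (blue) Visceral endoderm at E8.5, ordered by log2 fold change. Circles are library A and squares library B of each genotype, and *Rhox5* at 457 and 531 CPM in WT stands at 0 in both null libraries.

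*Rbp4* and *Ttr*, both secreted carriers, were still seen in the null Visceral endoderm of E8.5. *Rbp4* ran from 3887 to 28171 CPM over the 8 cells of null A, with a median of 17297 CPM, and from 0 to 7951 CPM with a median of 2154 CPM over the 14 WT cells. Summed, it was at 15830 and 628 CPM in null A and B and at 5392 and 2692 CPM in WT, and it was not called. *Ttr* was at 3770 and 0 CPM against 5849 and 4214 CPM. The single cell of null B differed from those of null A, with no UMI of *Ttr* or *Apoa1* and with 9606 CPM of *Nepn*, against 398 CPM in null A and 219 and 763 CPM in WT. Of 27 genes of the STAT3 pathway, 1 was deep enough to be tested, and it was not called.

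Markers of other tissues were summed in the same cells. The 14 genes of the gut tube list summed to 5117 and 5864 CPM in null and to 5264 and 5509 CPM in WT Visceral endoderm, and 5 were tested with 0 called. Of these 5, *Epcam*, *Krt8*, *Krt18* and *Cldn6* had means of 1328, 1603, 1632 and 755 CPM in null cells. In WT they had 1116, 1346, 2054 and 328 CPM, and *Cdx2* was at 102 CPM in null and 144 CPM in WT. The first 4 also stood at 402, 641, 1007 and 255 CPM in WT ExE endoderm of E8.5, so the sums do not measure gut identity. The liver bud list summed to 89.8 to 413 CPM in null and 531 to 1024 CPM in WT, with *Dlk1* called of 2 tested and *Alb* at 0. The erythroid list summed to 89.8 to 990 CPM in null and to 1088 to 1280 CPM in WT. The median mitochondrial share of UMIs was 0.0200% and 0.290% in the cells of WT A and B and 1.42% and 2.94% in those of null A and B, without overlap of the libraries, and the median share of atlas neighbours with the label was 0.740 in WT and 0.840 in null cells. The part of these markers and measures in the calls was not tested. *Rhox5*, *Trap1a* and *Afp* were called in DESeq2, which called these 3 alone. They were also called with each of the 4 libraries left out in turn, where the lone library of a genotype (1 cell without null A) is assumed to vary like the other group. The number of calls was then 3 without WT A, 8 without WT B, 37 without null A and 56 without null B. When the 3 labels were summed per library, no gene was called. The sum adds 7 null-sorted ExE endoderm cells without tdTomato, 9 WT ExE endoderm cells and the 1 parietal cell of WT B.

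The null-sorted ExE endoderm cells of atlas stage E7.5 had the reverse pattern, with *Rhox5* and almost no tdTomato. These were 12 of the 36 null-sorted cells of the label, and they held a median of 68425 UMIs (31056 to 96063), against 26656 UMIs in the WT cells of the label at E8.5 and E9.5. Of the 12, 10 came from E8.5 null A and B and E9.5 null A and B, and these had 0 tdTomato UMIs among 593429, which allows up to 5.06 CPM. The other 2, from E9.5 null C, had 1 tdTomato UMI each. In cells outside the 3 labels of the E8.5 and E9.5 null libraries, 72.5 to 98.3% had a tdTomato UMI, at 66.5 to 238 CPM. *Rhox5* stood at 1435 CPM over the 12 cells, with at least 31 UMIs in each, and *Trap1a* at 771 CPM. In the tdTomato-positive Visceral endoderm of E8.5, by contrast, tdTomato ran from 41.9 to 665 CPM per cell.

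At E8.5 *Ttr*, *Afp* and *Apoa1* of these null-sorted ExE endoderm cells lay between the WT libraries. There, *Ttr* was at 10733 and 11844 CPM in null A and B against 21403 and 10189 CPM in WT, *Afp* at 8157 and 5328 against 21426 and 3842 CPM and *Apoa1* at 8549 and 7258 against 14178 and 6024 CPM. At E9.5, null A and B had 15967 and 14353 CPM of *Ttr* and 15029 and 15219 CPM of *Apoa1*, against 6097 to 16121 CPM and 2444 to 12649 CPM in WT. The 7 cells of E8.5 and those of E9.5 null A and B had no tdTomato UMI, so they are not shown to be donor cells. Over all genes edgeR called 0% of 2292 at E8.5 (36 at an unadjusted p under 0.05) and 0% of 2028 at E9.5 (69), and DESeq2 and limma-voom called 0 in both. These counts cannot be read as a result about loss of *Stat3*. The count at E8.5 was 35 without WT B, and that at E9.5 was 0 also without the 24 later cells of null C described further on. At E8.5 all 3 marker genes had a fold change below 0 (median -0.52 against -0.00 over all genes), and at E9.5 the median was 0.26 against 0.02, with none called. Erythroid markers were low in this set at E9.5, summing to 12.5 to 47.7 CPM in null and to 386 to 782 CPM in WT, as in the other cells of those libraries (382 and 12464 CPM), and their part was not tested.

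The remaining null Visceral endoderm cells were 2 at E7.5 and 2 at E9.5. The cells of E7.5 null A had 0 and 1 tdTomato UMI and 48 and 30 UMIs of *Rhox5*. Summed, they gave 991 CPM of *Rhox5* and 508 CPM of *Afp*, against 887 and 835 CPM and 355 and 531 CPM in WT A and B. They gave 216 CPM of *Ttr*, 241 CPM of *Apoa1*, 140 CPM of *Rbp4* and 5296 CPM of *Spink1*, below both WT libraries (*Rbp4* 1233 and 1371 CPM, *Spink1* 8467 and 10069 CPM). The cell of E9.5 null A had 0 tdTomato UMIs, 6 of *Rhox5* and 8 of *Trap1a*, whereas the cell of E9.5 null D had 6 tdTomato UMIs and 0 of either gene. In all, 11 of the 13 null Visceral endoderm cells had a tdTomato UMI. At E9.5 edgeR called 0% of 1256 genes between the 2 cells of that stage and WT (46 at an unadjusted p under 0.05, and 0 in DESeq2 and limma-voom). Each null library there is a single cell, and that of null A had no tdTomato UMI. The fit takes these unlike cells as replicates, so it gives no result about genotype.

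**Figure D5:**
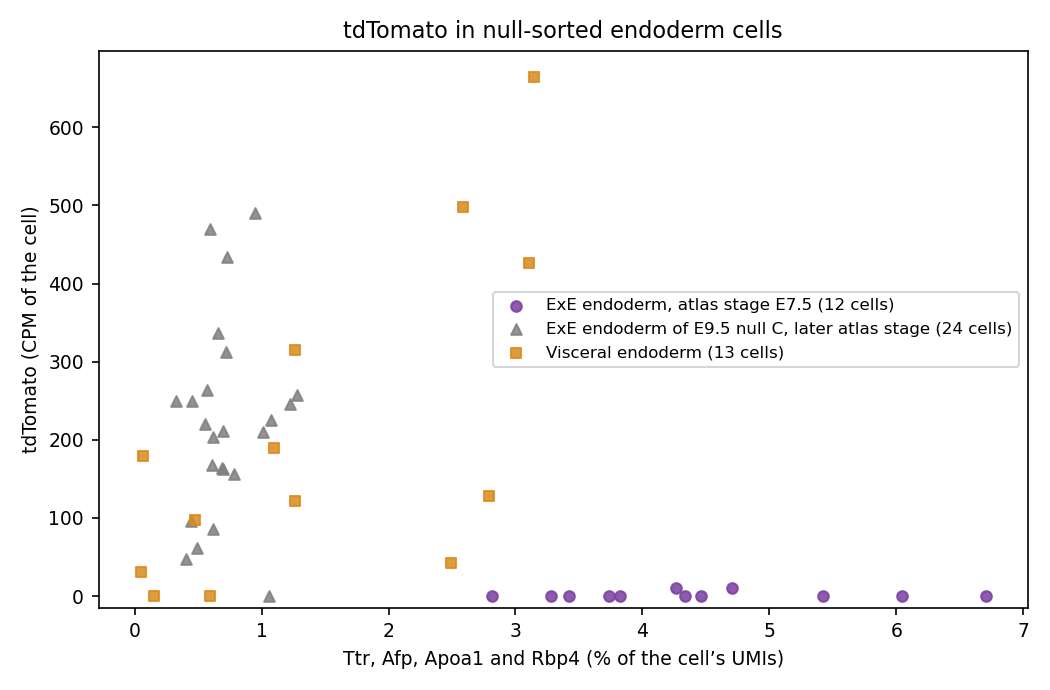
tdTomato (CPM of the cell, vertical axis) against the summed share of *Ttr*, *Afp*, *Apoa1* and *Rbp4* (% of the cell's UMIs, horizontal axis) in null-sorted cells, with a point for each cell. The 12 ExE endoderm cells of atlas stage E7.5 (purple circles) lie at the bottom right, the 24 later cells of E9.5 null C (grey triangles) at the left with tdTomato, and 11 of the 13 Visceral endoderm cells (orange squares) lie above 0.

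The 24 ExE endoderm cells of E9.5 null C were the cells of the label that mapped to an atlas stage after E7.75. They held 11511 to 24075 UMIs each, within the 10245 to 58260 UMIs of the E7.5 WT cells of the label, against 90827 and 96063 UMIs in the 2 cells of that library at atlas stage E7.5. Their mitochondrial share of UMIs was low in every cell, with a median of 0.150% (0.0800 to 0.260%). The median was 2.56% in the E7.5 WT cells of the label and 1.09% in the 1567 other cells of the library, and the part of this was not tested. UMIs of *Ttr*, *Afp*, *Apoa1* and *Rbp4* numbered 72 to 199 per cell with a median of 92.0, against 3872 and 4517 in the 2 cells and a median of 0 in the 1567 other cells of the library. A tdTomato UMI was seen in 23 of the 24, at 215 CPM. Their *Afp* level of 1526 CPM was above that of E7.5 WT A and B and of E9.5 WT B. Their levels of *Ttr* (1901 CPM), *Apoa1* (1589 CPM) and *Rbp4* (1929 CPM) were below every WT library of the label. For 20 genes with at least 500 CPM in the 2 cells and under 5 CPM in the other cells, the 24 cells stood at 13.2 to 28.5% of the level in the 2 cells, with a median of 17.5%. *Rhox5*, for example, was at 1461, 250 and 2.07 CPM in the 2, the 24 and the other cells, and *Trap1a* at 792, 120 and 0.0688 CPM.

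Genes of other tissues were present in these 24 cells. The neural and foregut factor *Sox2* stood at 147 CPM in them, at 0 in the 2 cells and at 158 CPM in the other cells of the library. *Isl1*, a factor of motor neurons and heart progenitors, stood at 144, 5.35 and 46.5 CPM, and the intermediate filament gene *Vim* at 397, 5.35 and 624 CPM. A UMI of both *Xist* and the Y-linked gene *Ddx3y* was seen in 4 of them. Cells with a doublet call had been left out beforehand, and the part of RNA from other cells in this label was not tested. Without these 24 cells, ExE endoderm at E9.5 falls below the 20 cells needed for the abundance test.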

How the data were processed

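The authors mapped 3′ single-cell libraries to mm10 with Cell Ranger, added the tdTomato sequence to the annotation and deposited raw UMI counts per gene and cell, without normalization. Their table of cells, also deposited, holds the percent of mitochondrial UMIs, the doublet call, and the label and stage of the nearest atlas cells, with the fraction of neighbours that share the label. Doublet calls (3395) and WT-sorted singlets with a tdTomato UMI (596) were left out, leaving 37841 cells. Of 29453 genes, 8178 (among them globin, ribosomal protein, mitochondrial, predicted and Y-linked genes, *Xist* and tdTomato) stayed out of the fits. Imprinted genes stayed in.

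Cells per label, and counts summed per label and library, were tested by quasi-likelihood in edgeR 4.0.16 (TMM factors, filterByExpr for genes) in R 4.3.3, with Benjamini-Hochberg adjustment over all types with at least 20 cells or all genes of a fit. Genes were called at an adjusted p under 0.05 and an absolute log2 fold change over 1. Named genes were the 12 with the largest fold changes per direction among genes called without overlap of libraries, members of the fixed lists, and the 15 leading genes of a label. No label had more than 15 cells in 2 libraries a side, as the planned fits required, so every library with a cell was used, a choice made after seeing the data. DESeq2 1.42.0, limma 3.58.1 and further alternatives were run. A group at 0 was bounded by 3 counts over the group, intervals were exact at 95%, and tests across genes were tested on simulated data. The members and the gene lists were chosen with earlier results of these data known. Some of the genes called are not reported here.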

Additional observations from a re-analysis of the deposited data

Results flagged for a closer look

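In E9.5 null C the share of ExE endoderm was 1.63%, and the share of the 3 labels together was also 1.63%, far from the other E9.5 null libraries. The gap to the nearest library was 0.949 of the range of the group for ExE endoderm and 0.977 for the sum. Of 7 groups of 4 libraries looked at, these 2 passed Dixon's limit, which chance passes in about 1 group in 20, and the 2 hold the same cells.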

How the results depend on the processing

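In the study each embryo pool gave a null and a WT library, and its own tests fit the pool beside genotype. No paired analysis was possible here because no sample title matches the names under which cells are assigned to libraries, so no library carries a replicate number. The tests between genotypes therefore take the libraries as unpaired. Abundance, as log2 fold changes: E7.5 Visceral endoderm ran from -8.30 to -5.94 with a library left out (-5.99, adjusted p = 0.118, without WT B), and ExE endoderm from -7.99 to -6.96, with -7.61 (adjusted p = 0.339) for all libraries in 1 fit. E8.5 Visceral endoderm ran from -0.90 to 0.05, with the positive value without null B. Parietal endoderm at E9.5 was called with no minimum of cells (-5.29, adjusted p = 0.0405) and without WT B or WT C (range -5.69 to -5.20). Between WT stages E7.5 and E8.5, ExE endoderm ran from -4.23 to -1.80, and Parietal endoderm was -0.01 in DESeq2. Between E8.5 and E9.5, Visceral endoderm ran from -1.51 to 0.40 and ExE endoderm from -1.09 to 0.06, with 0.09 in DESeq2. The number of genes called moved most. In WT Visceral endoderm from E7.5 to E8.5 it was 45 in limma-voom, 17 with RLE factors, 200 with no filter on low counts and 24 to 242 with a library left out, and from E8.5 to E9.5 it was 4, 8, 29 and 2 to 32. In WT ExE endoderm it was 40 with no filter, 7 with 3 stages in 1 fit and 11 to 108 with a library left out for the first step, and 1 and 1 for the later step. Between genotypes, E8.5 Visceral endoderm gave 3 in DESeq2, 13 with RLE factors, 7 with no filter, 56 with at least 2 cells a library, 0 with the labels summed and 3 to 56 with a library left out. E8.5 ExE endoderm gave 0 to 35 with a library left out. At E9.5, ExE endoderm gave 2 with no filter, 34 without tdTomato-negative null cells (a single null library) and 5 with the labels summed, and Visceral endoderm gave 2, 35 and 5, and 0 to 35 with a library left out. The *Stat3* difference ran from -34.8 to 5.17 CPM, with 5.17 CPM without E9.5 null C or its 24 later cells. As a mean of cells, *Ttr* in E7.5 Visceral endoderm was 4359 CPM and *Apoa1* in E7.5 ExE endoderm 5430 CPM. Most libraries held under 10 cells of a label. The cause of these shifts was not tested.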

Other observations

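The cells labelled Gut tube, Foregut, Midgut or Hindgut, which visceral endoderm is known to join, were looked at for *Rhox5* and *Trap1a*. At E8.5 a *Rhox5* UMI was seen in 18 of 157 WT and 3 of 164 null gut cells, and at E9.5 in 17 of 147 WT and 1 of 105 null cells. A *Trap1a* UMI was seen in 12 of 157 WT and 0 of 164 null cells at E8.5 and in 21 of 147 WT and 0 of 105 null cells at E9.5. *Rhox5* UMIs were also seen outside gut and the 3 labels, in 4.57% to 6.30% of those cells in the 4 E8.5 libraries and in 2.77% to 8.95% in the 8 E9.5 libraries, and *Trap1a* UMIs in 0.243% to 0.730% and 0.306% to 1.45%, at median depths of 18243 to 31147 and 26655 to 45896 UMIs (17018 to 26842 and 27816 to 50996 in gut cells). Against its own library's other cells, the *Rhox5* share of gut cells was higher in WT A and B (8.16% and 13.0% against 6.30% and 4.57%) and lower in null A and B (1.80% and 1.89% against 5.47% and 4.96%) at E8.5. At E9.5 it was 22.6% against 8.95% in WT D, 4.17% against 2.77% in WT C and 9.09% (1 of 11 cells) against 4.05% in null C, and at or below the other cells in the remaining libraries. The source of these UMIs, in gut or in other cells, was not tested. By library, the share of gut cells with *Rhox5* was 10.6% ± 3.39 (SD, n = 2) in WT and 1.84% ± 0.0601 (n = 2) in null at E8.5, and 7.94% ± 10.0 (n = 4) against 2.27% ± 4.55 (n = 4) at E9.5. The difference of -7.19 percentage points over both stages had p = 0.0619 in an exact two-sided permutation test within stages, and -6.97 points with p = 0.167 after thinning each cell to 10000 UMIs. The 4 libraries of a genotype at E9.5 come from 2 embryos and were taken as independent, so these p-values are too small. Most E9.5 WT cells with these genes came from WT D, with 14 of 62 for *Rhox5* and 17 of 62 for *Trap1a*, and WT D also held the most cells of the 3 labels at that stage, 28. *Trap1a* was chosen after its values were seen and was not tested.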
